A study of Homo sapiens with 12 samples.

Results

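SW480 cells overexpressing the standard isoform of CD44 (labelled CD44s-OE) were compared with parental SW480 cells, 2 libraries against 2, over all genes. The 4 libraries were chosen by their labels, not by any measured value, and were 4 of the 12 RNA-seq libraries of the series. SW480 is an established cell line from a colon adenocarcinoma. The other 8 libraries were SW480 cells overexpressing the isoform CD44v6 (CD44v6-OE) and the same 3 kinds of cells made from HCT116, another colon cancer line, with 2 libraries per kind. The study asked what each CD44 isoform does to colon cancer cells. Per the study's methods, the overexpressing cells were stably transfected with an expression plasmid and selected with Geneticin, and the names of the count columns mark them as pools. The controls were parental cells, and no library of cells carrying an empty vector was used here, so the effects of transfection and selection cannot be told apart from those of CD44s. Nothing in the labels says that the 2 libraries of a group came from separate transfections or cultures, so the p-values measure the spread between these libraries, which may be technical.

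CD44 is a transmembrane receptor for hyaluronan, a polysaccharide of the extracellular matrix. Its standard isoform skips all the variant exons in the middle of the gene, while CD44v6 keeps a variant exon. Colon epithelium is held together by adherens junctions, built on cadherins, and by tight junctions, built on claudins, and it rests on laminins of the basement membrane. Cells passing to a mesenchymal state lower these genes, and repressors such as ZEB1 and SNAI1, which bind E-box sequences in promoters, are known for that role.

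The following primer pair, which the study used to amplify the standard isoform, is shown because it defines what CD44s means. In the forward primer all 20 bases lie in 1 constant exon of CD44, at chr11:35211442-35211461 of hg19 (exon 5 of transcript CD44-201), on the plus strand. The reverse primer crosses from that exon, where 15 of its bases lie at chr11:35211598-35211612, into exon 6 of the same transcript, where the other 4 bases lie at chr11:35236399-35236402, with all variant exons between them. Capitals mark those 4 bases, and the primer is given 5′ to 3′ on the minus strand. Of 38 annotated CD44 transcripts, 3 held the reverse primer site and 21 held the forward one.
CD44s forward: aagacatctaccccagcaac
CD44s reverse: TCTCtggtagcagggattc

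The deposited values count reads over the whole gene and do not separate isoforms. CD44 (ENSG00000026508, chr11:35160429-35253949) had 188 and 163 CPM, counts scaled to the size of the library, in the parental libraries and 179 and 204 CPM in the CD44s-OE libraries. The groups overlapped, and the log2 fold change was 0.12 ± 0.16 (SE, n = 2 per group, adjusted p = 0.777). Total CD44 therefore did not check the labelled overexpression, and the directions below rest on the labels. The study itself assayed the isoforms by RT-qPCR and CD44 protein by western blot in its overexpressing SW480 cells, which the deposited counts do not show. Total counts per library ranged from 43102156 to 51038512 over the 4 libraries. The colon epithelial markers had a summed level of 17379 to 17427 CPM in parental and 8549 to 9992 CPM in CD44s-OE cells. Of the 10 markers, 8 were expressed highly enough to be tested. Among these 1 was called higher and 2 lower, against 1.39% and 0.639% of all genes, so the sum does not speak for each marker. Summed fibroblast markers ranged from 2.00 to 3.95 CPM in parental and 3.08 to 3.71 CPM in CD44s-OE cells, with POSTN at 0. Leukocyte markers summed to 1.59 to 2.16 CPM and to 4.23 to 5.49 CPM respectively, with MS4A1 and NKG7 at 0, endothelial markers to at most 1.69 CPM, with KDR at 0, and neuronal markers to 20.2 to 21.0 and to 25.0 to 36.1 CPM. Of 3 fibroblast and 2 leukocyte markers tested, 1 of each was called higher and none lower. LUM, a fibroblast marker, had 1 and 1 counts in parental and 22 and 40 in CD44s-OE cells (adjusted p = 0.0149). LYZ, a leukocyte marker, had 12 and 8 and then 49 and 50 counts (adjusted p = 0.078). None of 2 endothelial and 5 neuronal markers tested was called. The part of these shifts in the results below was not tested.

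The 2 parental libraries disagreed far more than the libraries of the other groups. Among 10524 genes with a mean of at least 5 CPM in the parental cells, 378 (3.59%) differed over 2-fold between the 2 parental libraries. Of these, 227 were higher in parental replicate 1 and 151 in parental replicate 2. The same count was 34 of 10558 genes between the CD44s-OE libraries and 32 of 10623 between the CD44v6-OE libraries. On the deposited variance-stabilized scale, the distance between the parental libraries (55.7) was close to the mean distance from CD44s-OE to parental libraries (60.9, range 50.5 to 68.0), and the CD44s-OE libraries lay 38.5 apart. The mean distance of the CD44s-OE libraries was 65.7 to parental replicate 1 and 56.2 to parental replicate 2.

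**Figure D1:**
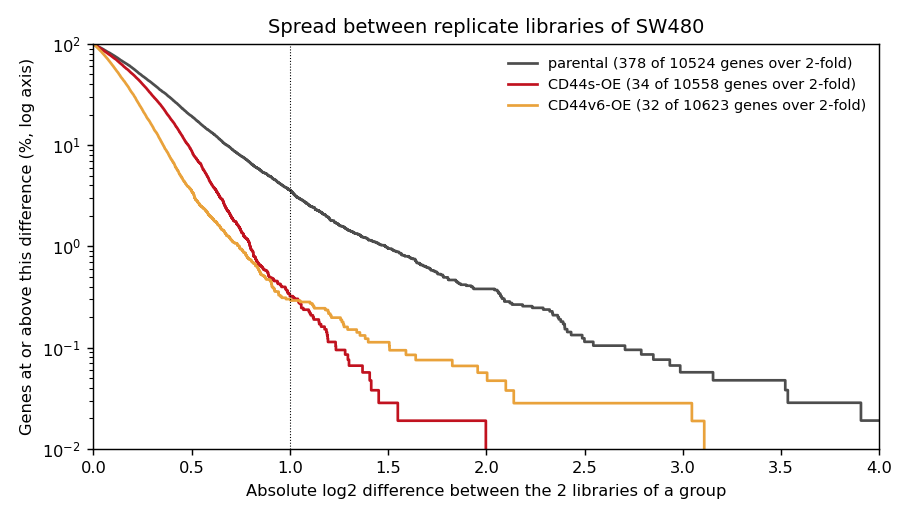
Share of genes (percent, log axis) whose 2 libraries differ by at least the absolute log2 difference on the horizontal axis, for the parental, CD44s-OE and CD44v6-OE groups of SW480 (genes with a mean of at least 5 CPM in the group). The dotted line marks a 2-fold difference, which 378 genes exceeded between the parental libraries against 34 and 32 in the other groups.

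Genes higher in parental replicate 1 were led by PDE2A, a phosphodiesterase of cyclic nucleotides, with 39.7 CPM against 2.61 CPM in replicate 2. NOS3, the endothelial nitric oxide synthase, had 95.7 and 8.23 CPM, the protease GZMB 43.5 and 4.85 CPM, the cytokine IL24 68.4 and 8.92 CPM, and the interferon-induced nuclease ISG20 35.5 and 4.89 CPM. Those highest in replicate 2 relative to replicate 1 were the chemokine CXCL14, with 13.7 against 0.305 CPM, the acute phase protein SAA1, with 62.2 against 2.21 CPM, the glutamate transporter SLC1A3, with 20.9 against 1.78 CPM, COL4A2-AS2, with 13.6 against 1.68 CPM, and the homeobox factor MSX1, with 587 against 84.9 CPM.

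These differences moved the comparison with CD44s-OE. A fit that leaves out a parental library takes its spread from the other groups, whose libraries disagreed less. Calls in such a fit therefore leave the parental disagreement out of account. In 224 of the 378 genes both CD44s-OE libraries lay between the 2 parental libraries, and 252 of the 378 had a log2 fold change of one sign when parental replicate 1 was left out and of the other sign when parental replicate 2 was left out. PDE2A, at 13.5 and 16.7 CPM in CD44s-OE cells, was not called in the fit of all libraries (log2 fold change -0.48 ± 1.23, adjusted p = 0.91). It rose by 2.54 without parental replicate 1 and stood at -1.40 without parental replicate 2. SLC1A3 had 76.0 and 78.5 CPM in CD44s-OE cells, above both parental libraries, with a log2 fold change of 2.76 ± 1.18 (adjusted p = 0.389), which was 1.89 without parental replicate 1 and 5.44 without parental replicate 2, and called in both. Conversely, NOS3 had 2.89 and 3.01 CPM in CD44s-OE cells, below both parental libraries, and 46.4 and 48.5 CPM in CD44v6-OE cells (-4.14 ± 1.32 against parental cells, adjusted p = 0.266). Its log2 fold change was -1.48 without parental replicate 1, under the fold threshold, and -5.02, and called, without parental replicate 2. MSX1 changed sign with the library left out, from -1.32 to 1.47, and ID2, a transcriptional inhibitor with 115 and 369 CPM in the parental libraries, from -0.70 to 0.97, in both genes first without parental replicate 1 and then without parental replicate 2. Of the 378 genes 18 were called in the fit of all libraries, 24 without parental replicate 1 and 74 without parental replicate 2.

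Over the 17539 genes tested, CD44s-OE cells gave 244 higher (1.39%) and 112 lower calls (0.639%) against the parental cells. A call required a Benjamini-Hochberg adjusted p under 0.1 in edgeR's quasi-likelihood test and an absolute log2 fold change over 1.5. At any fold change, 438 genes (2.5%) were higher and 390 (2.22%) lower at that adjusted p. Over all genes the median was 0.002 on the log2 scale. The CD44s-OE and parental libraries did not overlap in any of the 244 higher and 112 lower genes. The same held for 7464 of all 17539 tested genes. A lack of overlap is therefore no separate support for a called gene.

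The called genes differed in level. The higher genes had a median of 0.235 CPM in parental and 1.63 CPM in CD44s-OE cells, and 82 of the 244 (33.6%) had at most 6 counts, or 3 read pairs, in each parental library, against 2.43% of all tested genes. A gene that low in parental cells can hardly be called lower, and the 112 lower genes had a median of 7.63 CPM in parental and 1.65 CPM in CD44s-OE cells. Protein-coding genes made up 204 of the higher and 92 of the lower genes. Leaving out 1 of the 6 SW480 libraries at a time, 41 of the higher and 25 of the lower genes were called in every fit. The number of calls was 464 without parental replicate 1 and 809 without parental replicate 2, of which 273 and 311 were among the 356, and 238 genes were called in all 3 fits. It was 194 without CD44s-OE replicate 1 and 79 without CD44s-OE replicate 2.

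**Figure D2:**
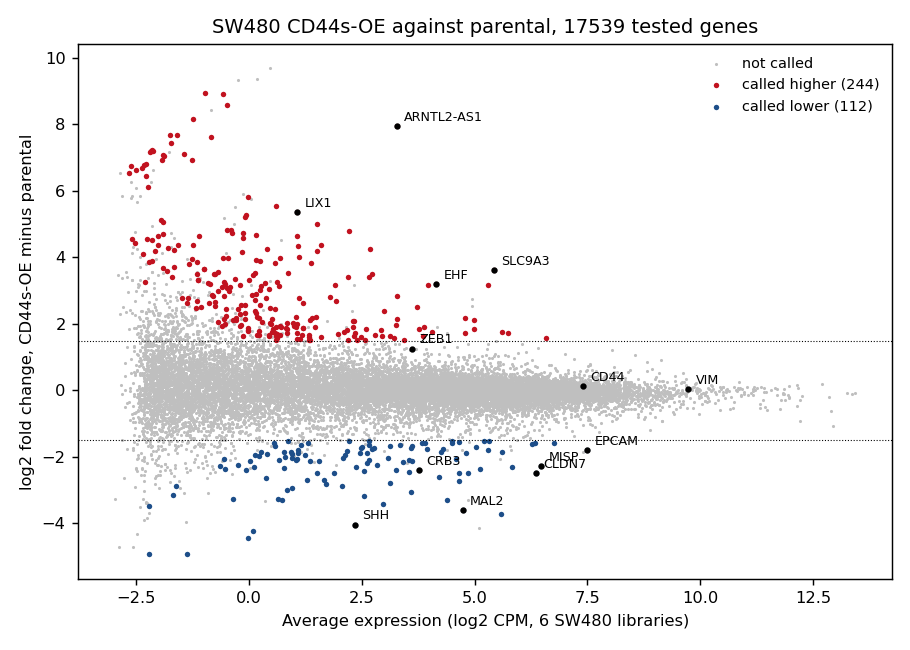
Log2 fold change of CD44s-OE minus parental SW480 cells against average expression (log2 CPM) for 17539 tested genes, with 244 called higher in red, 112 called lower in blue, named genes as black points and the call threshold of 1.5 as dotted lines. Lower genes reach well expressed genes such as EPCAM, while many higher genes are near the low end, and CD44 and VIM lie near 0.

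A share of the genes of epithelial junctions, polarity and apical sorting was lower. Of 44 tested genes of this list, 10 were called lower and none higher, against 0.639% and 1.39% of all genes, and at any fold change 22 were lower and 1 higher at an adjusted p under 0.1, against 2.22% and 2.5%. The list holds genes that the study names for these cells, such as EPCAM and MAL2, so its count is not independent evidence of its direction. The list's median log2 fold change was -0.69, against 0.002 for all genes, and 10 members were called without parental replicate 1 (9 lower and 1 higher), 12 without parental replicate 2, all lower, and 6 without CD44s-OE replicate 2. CLDN7 (ENSG00000181885, chr17:7163222-7167302), a claudin of epithelial tight and basolateral junctions, had 120 and 73.5 CPM in parental and 16.9 and 17.6 CPM in CD44s-OE cells. Its log2 fold change was -2.49 ± 0.23 (SE, n = 2 per group, adjusted p = 0.000572). As in every gene called lower, both CD44s-OE libraries lay below both parental libraries. EPCAM (ENSG00000119888, chr2:47572297-47614740), the epithelial adhesion molecule that binds claudins, had 243 and 244 CPM in parental and 70.5 and 69.2 CPM in CD44s-OE cells. It fell by 1.80 ± 0.16 on the log2 scale (adjusted p = 0.000548), and since its libraries agreed so closely within each group the change was 1.80 whichever parental library was left out.

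Polarity and sorting genes moved with them. CRB3 (ENSG00000130545, chr19:6463788-6467232), the Crumbs protein that marks the apical membrane, had 18.6 and 17.2 CPM in parental and 3.51 and 3.30 CPM in CD44s-OE cells. MAL2 (ENSG00000147676), which carries cargo to the apical surface, went from 45.0 and 43.4 CPM to 4.94 and 2.38 CPM. The fall was 2.39 ± 0.20 on the log2 scale for CRB3 and 3.60 ± 0.31 for MAL2, with adjusted p = 0.000301 and 0.000565, and for both genes the groups were far apart. MISP (ENSG00000099812, chr19:751112-764318), an actin-bundling protein, had 183 and 115 CPM in parental and 27.9 and 33.8 CPM in CD44s-OE cells. MISP fell by 2.27 ± 0.22 (adjusted p = 0.000572).

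The classical cadherins CDH3 and CDH1 were both called lower, with unequal certainty. CDH3, P-cadherin, had 21.9 and 37.3 CPM in parental and 5.82 and 4.76 CPM in CD44s-OE cells, a change of -2.48 ± 0.27 (adjusted p = 0.00101). CDH1, E-cadherin, had 6.48 and 17.2 CPM in parental and 1.32 and 0.885 CPM in CD44s-OE cells. The groups did not overlap and the change was -3.43 ± 0.73, but the adjusted p was 0.0832, and the call was lost without either parental library (adjusted p = 0.126 without replicate 1 and 0.134 without replicate 2). It was lost without either CD44s-OE library too. CDH1 also differed between the CD44v6-OE libraries, at 5.17 and 15.7 CPM.

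Not all junction genes took part. The log2 fold change was -0.70 for occludin, OCLN (adjusted p = 0.177), -0.44 for TJP1 (0.309), -0.25 for CLDN4 (0.795) and -0.05 for CTNND1, the p120 catenin (0.956). CLDN1 was the one member higher at an adjusted p under 0.1 (0.99, adjusted p = 0.0596), below the fold threshold. ESRP2, an epithelial splicing regulator, was lower without reaching that threshold, from 72.6 and 70.03 CPM to 30.7 and 32.0 CPM (-1.19 ± 0.17, adjusted p = 0.0053). In the desmosome list of 10 tested genes none was called, with a median of -0.20.

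The other lower genes named by the same rule included regulators and enzymes of epithelial cells. MAB21L4 had 26.0 and 43.1 CPM in parental and 4.43 and 2.61 CPM in CD44s-OE cells (-3.30 ± 0.31, adjusted p = 0.000572). WNT10A, a Wnt ligand, went from 41.3 and 28.8 CPM to 5.98 and 4.54 CPM (-2.73 ± 0.23, adjusted p = 0.000301). SHH, the Sonic hedgehog ligand, had 6.45 and 14.2 CPM in parental and 0.690 and 0.570 CPM in CD44s-OE cells (-4.03 ± 0.50, adjusted p = 0.00325), and was called in all but the fit without CD44s-OE replicate 2. In each of these genes, as in every gene called lower, both CD44s-OE libraries were below both parental libraries. Log2 fold changes below -2 were also found for the serine protease PRSS22 (-3.07), the synaptic scaffold SHANK2 (-2.80), NT5DC4 (-2.77), the phospholipid enzyme CDS1 (-2.24), the tricellular junction protein ILDR1 (-2.19) and the keratinocyte differentiation factor KDF1 (-2.15). OVOL2, a transcription factor that maintains epithelial identity, had 8.23 and 8.35 CPM in parental and 2.51 and 2.38 CPM in CD44s-OE cells (-1.76 ± 0.23, adjusted p = 0.00292).

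Genes of laminins that anchor epithelium to the basement membrane were called lower. LAMB3 had 87.2 and 55.4 CPM in parental and 18.4 and 20.9 CPM in CD44s-OE cells (-1.86 ± 0.23, adjusted p = 0.00195). LAMA3 had 45.4 and 40.8 CPM and then 15.8 and 10.6 CPM (-1.71 ± 0.21, adjusted p = 0.00187). The call was lost for LAMB3 without parental replicate 1 (-1.49) and for LAMA3 without CD44s-OE replicate 2. Tenascin C (TNC), a matrix protein usually counted as mesenchymal, fell too, from 19.4 and 13.4 CPM to 3.97 and 2.20 CPM (-2.41 ± 0.32, adjusted p = 0.00336). Of the 16 keratins tested, the structural filaments of epithelial cells, 3 were called lower and none higher, against 0.639% and 1.39% of all genes, with a median of -0.72. KRT13 had 69.95 and 64.3 CPM in parental and 7.22 and 3.05 CPM in CD44s-OE cells (-3.71 ± 0.50, adjusted p = 0.0201), a call that was lost without either parental library. KRT81 (-2.29) and KRT15 (-1.51) were the others, and both calls were lost without either CD44s-OE library, that of KRT15 also without parental replicate 1. Reads of KRT81 may be shared with its close paralog KRT86 (-0.88, adjusted p = 0.0726). The keratins of simple epithelium, KRT8 and KRT18, were lower by less than the threshold (-1.07 and -0.92, adjusted p = 0.0214 and 0.0333). CEMIP, which binds and degrades hyaluronan, was the only called gene of 27 tested hyaluronan and CD44 partner genes, at 13.2 and 31.3 CPM in parental and 4.10 and 4.01 CPM in CD44s-OE cells (-2.46 ± 0.36, adjusted p = 0.00888). The call was lost without either CD44s-OE library.

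**Figure D3:**
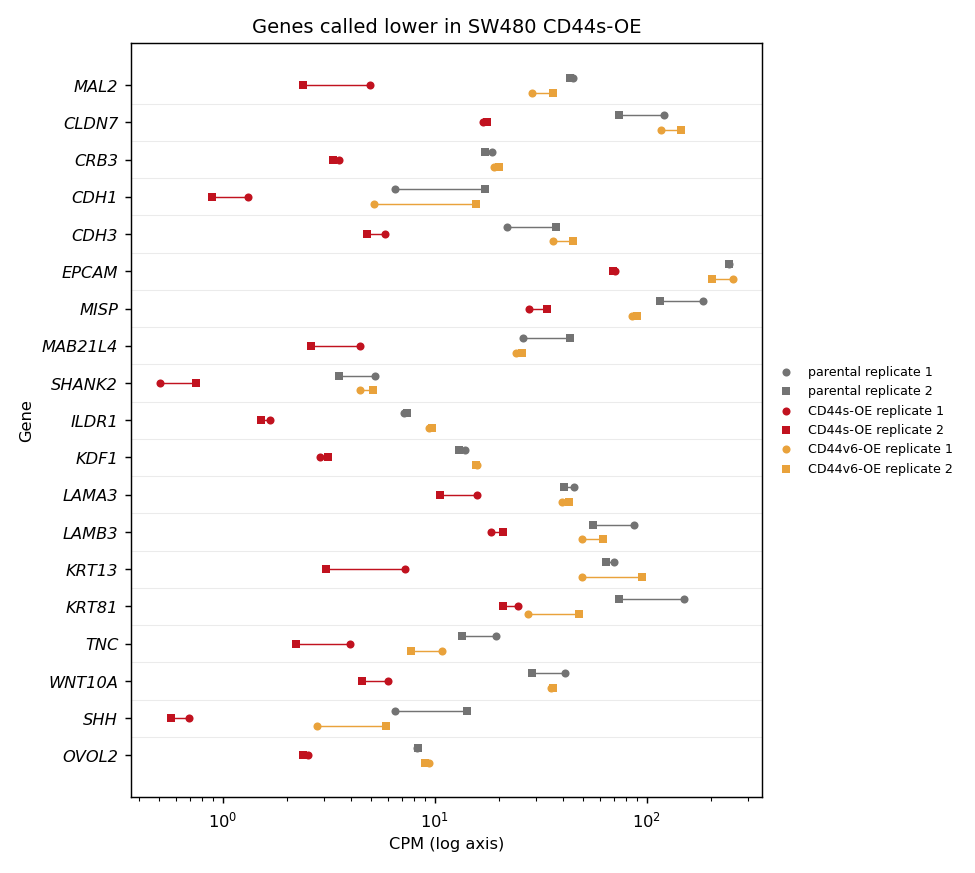
CPM (log axis) of 19 genes called lower in SW480 CD44s-OE cells, 1 point per library, in parental (grey), CD44s-OE (red) and CD44v6-OE (orange) cells. Each red pair lies below both grey points of its gene, as in every gene called lower. The CD44v6-OE points of most genes lie near the grey ones, while those of KRT81 lie nearer to the red.

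An E-box sequence, which the comparison did not use, was counted in the promoters of the called genes. The E-box CAGGTG, the form bound by the ZEB and SNAI repressors, was searched on both strands of RefSeq promoters (build GRCh38.p14, 250 bases before to 50 after the gene's start). A promoter was matched by symbol for 66 of the 112 lower and 161 of the 244 higher genes. It held at least 1 such E-box in 37 of the 66 lower genes (56.1%), in 35 of the 161 higher genes (21.7%) and in 19.4% of 11971 tested genes with a promoter. At least 2 copies were found in 14 lower genes (21.2%), 3 higher genes (1.86%) and 2.80% of all. Lower genes with an adjusted p under 0.1 but a fold change under the threshold held it in 36.5% of 200 promoters, and the higher genes of that kind in 16.3% of 147. The related E-box CAGCTG did not follow this order, with 13.6% of the lower, 24.8% of the higher and 17.1% of all promoters, and CACGTG was found in 1.52%, 9.32% and 9.90%. By G and C content, CAGGTG was present in 2 of 7 lower genes (28.6%) and 13.2% of all promoters up to 50%, in 8 of 18 (44.4%) and 19.9% from 50 to 60%, in 18 of 24 (75.0%) and 20.5% from 60 to 70%, and in 9 of 17 (52.9%) and 19.3% above 70%. Of the lower genes described above, CLDN7, WNT10A, NT5DC4, TNC and CEMIP had no copy in this window. Others described above, among them EPCAM, CDH1, CDH3 and OVOL2, had no matched promoter and were not searched. The median G and C content was 61.8% in lower and 65.3% in all promoters. A match describes letters in a window and does not show that a factor binds there.

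The 250 bases before the start of 3 lower genes called in every fit with at least 2 copies there are shown as examples, with the E-boxes in capitals. They are CRB3 (GRCh38 chr19:6464021-6464270, plus strand, 5 copies), MISP (chr19:750862-751111, plus strand, 3 copies) and KDF1 (chr1:26960469-26960718, minus strand, 2 copies).
CRB3: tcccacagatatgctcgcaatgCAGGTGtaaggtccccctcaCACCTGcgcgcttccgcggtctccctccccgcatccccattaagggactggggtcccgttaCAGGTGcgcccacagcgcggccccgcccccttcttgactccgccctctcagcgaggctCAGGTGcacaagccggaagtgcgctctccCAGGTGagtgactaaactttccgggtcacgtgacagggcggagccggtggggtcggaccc
MISP: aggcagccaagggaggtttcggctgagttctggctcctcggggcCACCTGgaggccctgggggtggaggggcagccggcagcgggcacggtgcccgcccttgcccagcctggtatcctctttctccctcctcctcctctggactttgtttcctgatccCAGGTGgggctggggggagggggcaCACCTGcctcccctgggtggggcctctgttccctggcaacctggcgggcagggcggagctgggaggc
KDF1: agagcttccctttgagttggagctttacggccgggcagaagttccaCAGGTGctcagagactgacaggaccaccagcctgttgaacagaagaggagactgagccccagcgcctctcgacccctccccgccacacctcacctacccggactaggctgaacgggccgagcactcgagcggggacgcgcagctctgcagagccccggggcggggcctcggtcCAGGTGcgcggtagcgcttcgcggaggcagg

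None of the 10 tested transcription factors that drive a mesenchymal state was called, with a median of -0.01. ZEB1 had 9.20 and 7.84 CPM in parental and 26.4 and 14.4 CPM in CD44s-OE cells, with no overlap, and its log2 fold change of 1.26 ± 0.27 (adjusted p = 0.0351) was under the fold threshold. It was 0.75 without CD44s-OE replicate 1 (adjusted p = 0.235) and 1.63, and called, without CD44s-OE replicate 2 (0.0457). SNAI1, another repressor of epithelial genes, had 18.2 and 14.2 CPM and then 15.8 and 17.2 CPM (0.03 ± 0.19, adjusted p = 0.97). VIM, the mesenchymal intermediate filament vimentin, was already abundant in parental cells at 1091 and 733 CPM and had 968 and 902 CPM in CD44s-OE cells (0.04 ± 0.21, adjusted p = 0.961). The groups overlapped for both. Of 41 mesenchymal and matrix genes tested, CDH11 and SPARC were called higher and TNC lower, against 1.39% and 0.639% of all genes, with a median of 0.09. Without parental replicate 1, 4 were higher and 1 lower (median 0.14), without parental replicate 2, 5 were higher and 2 lower (median 0.32), and 2 and 1 were called without CD44s-OE replicates 1 and 2. CDH11, a mesenchymal cadherin, had 0.280 and 1.94 CPM in parental and 11.8 and 12.6 CPM in CD44s-OE cells (3.42 ± 0.73, adjusted p = 0.0725), and lost its call without either CD44s-OE library. SPARC, a collagen-binding matrix protein, had 0.407 and 0.485 CPM and then 2.03 and 2.91 CPM (2.46 ± 0.41, adjusted p = 0.0107), a call lost without CD44s-OE replicate 2.

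Among the higher genes, the clearest at a substantial level were SLC9A3 and EHF. SLC9A3 (ENSG00000066230, chr5:470571-524564), the apical sodium-proton exchanger NHE3 of the intestine, had 8.82 and 7.68 CPM in parental and 92.2 and 110 CPM in CD44s-OE cells. Its log2 fold change of 3.62 ± 0.22 had an adjusted p of 5.6e-05. EHF (ENSG00000135373, chr11:34642640-34684835), an epithelial transcription factor of the ETS family, had 3.63 and 5.01 CPM in parental and 37.9 and 41.6 CPM in CD44s-OE cells (3.20 ± 0.27, adjusted p = 0.000301). Epithelial genes thus moved both ways, EHF rising and OVOL2 falling within a list of 12 tested epithelial transcription factors. RASGRF1, an exchange factor that activates RAS, had 15.4 and 17.1 CPM and then 52.99 and 65.0 CPM (1.86 ± 0.18, adjusted p = 0.000572). GDA, guanine deaminase, had 1.93 and 3.74 CPM and then 19.9 and 21.2 CPM (2.84 ± 0.33, adjusted p = 0.00187). In each of the 4 genes, as in every gene called higher, the CD44s-OE libraries were above both parental libraries.

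The largest fold changes were of transcripts almost absent from parental cells. ARNTL2-AS1 (ENSG00000245311, chr12:27542722-27599558), a long non-coding RNA antisense to ARNTL2, had 0.0254 and 0.182 CPM in parental and 19.9 and 36.0 CPM in CD44s-OE cells, from 1 and 9 against 950 and 1833 counts (7.94 ± 0.56, adjusted p = 0.000301). The counting used strand. LIX1 had 2 and 10 counts in parental and 217 and 330 in CD44s-OE cells, with a log2 fold change of 5.35, and LINC02178 had 11 and 30 against 348 and 903 counts (4.78). The fold changes of such genes depend on how few parental counts there were: that of ARNTL2-AS1 was 7.25 without parental replicate 1 and 9.95 without replicate 2.

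A second set of higher genes had similar levels in CD44v6-OE cells. GPX2, a gut glutathione peroxidase, had 1.93 and 2.55 CPM in parental and 13.01 and 27.3 CPM in CD44s-OE cells (3.16 ± 0.34, adjusted p = 0.00135), with 24.0 and 24.4 CPM in CD44v6-OE cells. DPEP1, a membrane dipeptidase, had 0.584 and 0.788 CPM, then 5.00 and 10.7 CPM in CD44s-OE and 11.5 and 10.6 CPM in CD44v6-OE cells. COL4A1, a chain of basement membrane collagen IV, had 0.203 and 0.162 CPM, then 2.82 and 3.91 CPM and 4.74 and 5.03 CPM. The log2 fold change against parental cells was 3.50 ± 0.39 for DPEP1 and 4.20 ± 0.39 for COL4A1. In direct comparison of CD44s-OE with CD44v6-OE cells, the log2 fold change was -0.26 for GPX2, -0.49 for DPEP1 and -0.54 for COL4A1, and none passed (adjusted p = 0.827, 0.653 and 0.581). The same held for the protocadherin PCDH19 (4.63 against parental, -0.13 against CD44v6-OE), BAIAP2L2 (4.38 and 0.16), KLRC2 (4.00 and -0.21), SH3BGRL (4.99 and 0.15) and ASPRV1 (3.42 and 0.43). KLRC2 has close paralogs, and reads shared with them could not be told apart.

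**Figure D4:**
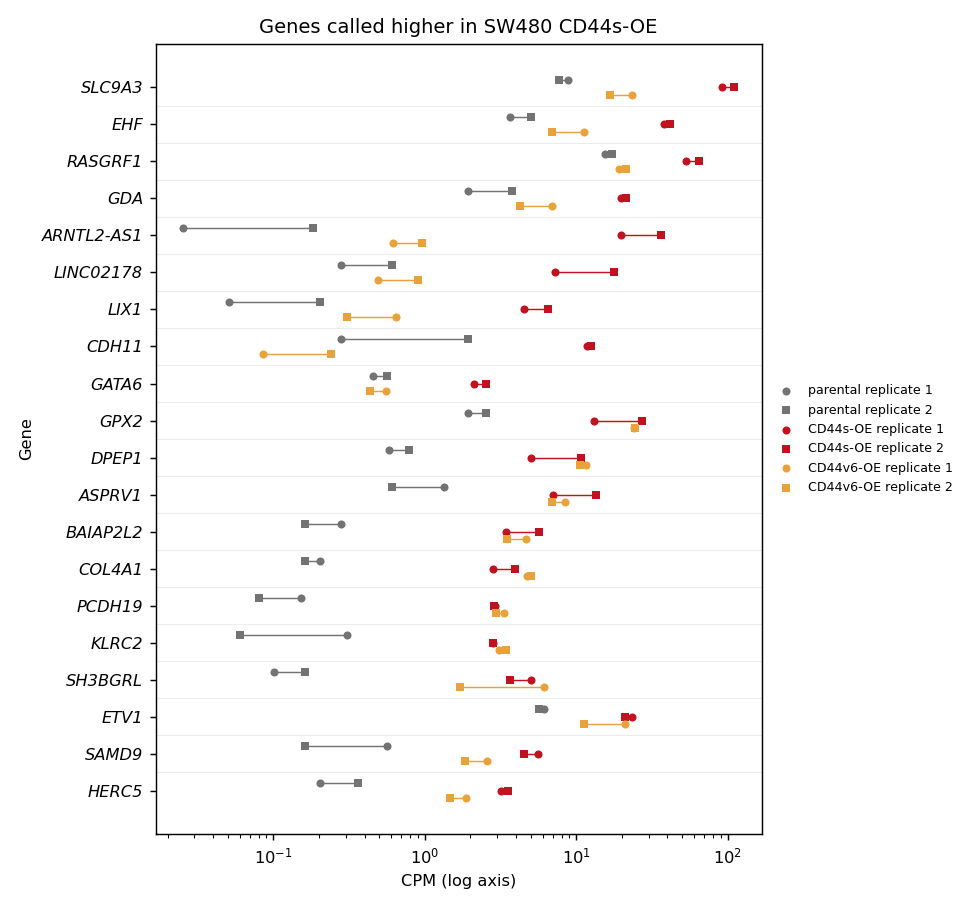
CPM (log axis) of 20 genes called higher in SW480 CD44s-OE cells, 1 point per library, in parental (grey), CD44s-OE (red) and CD44v6-OE (orange) cells. The red points lie to the right of both grey points of each gene, as in every gene called higher. For genes such as GPX2, PCDH19 and COL4A1 the orange points lie with the red, while for SLC9A3, EHF and ARNTL2-AS1 they lie between grey and red.

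Lists of intestinal genes held several higher members. Of 22 tested intestinal lineage and transcription factor genes, 5 were called higher and none lower, with a median of 0.47. Of 19 genes of the enterocyte brush border list, 4 were called higher and 1 lower, with a median of 0.55. Over all genes, 1.39% were called higher and 0.639% lower. For CD44v6-OE minus parental cells the list medians were 0.61 and 0.72, and for CD44s-OE minus CD44v6-OE cells -0.28 in both. By these medians the rise was not particular to CD44s-OE cells. GATA6, an endodermal transcription factor, had 0.457 and 0.566 CPM in parental and 2.11 and 2.52 CPM in CD44s-OE cells (2.17 ± 0.42, adjusted p = 0.0214). DPP4, a brush border peptidase, had 4 and 12 counts in parental and 87 and 119 in CD44s-OE cells. TFF3, a goblet cell peptide, had 4 and 0 counts against 40 and 88. All 3 calls were lost without CD44s-OE replicate 2, and that of GATA6 also without replicate 1. The one lower member of the brush border list was ALPP, which encodes the placental alkaline phosphatase. It had 4.22 and 12.1 CPM and then 1.86 and 3.11 CPM (adjusted p = 0.098) and lost its call in 8 of the alternative fits. In contrast CDX2, the caudal factor of colon identity, was lower below the threshold (-1.15, adjusted p = 0.0153). For CD44s-OE minus CD44v6-OE cells, the log2 fold change was 2.21 for GATA6 (adjusted p = 0.0259), 1.27 for DPP4 (0.3) and 0.04 for TFF3 (0.99). The intestinal list had 1 called member without CD44s-OE replicate 2.

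Called members of other lists are read against the 1.39% called higher and 0.639% called lower over all genes. Of 20 cadherins and protocadherins tested, 5 were called higher and 2 lower, the latter CDH1 and CDH3, with a median of 0.95. Without CD44s-OE replicate 1 or 2 only 3 or 2 cadherins were called, and the median was 0.69 without parental replicate 1 and 0.60 without parental replicate 2. Of 26 collagens and laminins, 4 were higher, namely COL4A1, COL12A1, COL6A2 and COL9A2, and 3 were lower, with a median of 0.13. COL12A1 rested on 2 and 1 counts in parental and 45 and 30 in CD44s-OE cells. COL12A1, COL6A2 and COL9A2 were not called without either CD44s-OE library, and COL6A2 also without either parental library. Of 46 interferon-stimulated genes, 4 were higher and none lower, with a median of 0.06. They were SAMD9, with 0.559 and 0.162 CPM in parental and 5.56 and 4.52 CPM in CD44s-OE cells (3.84 ± 0.50, adjusted p = 0.00276), HERC5 (3.53), IFIT1 (3.36) and IFIT2 (2.56). The calls of IFIT1 and IFIT2 were lost without either CD44s-OE library. ETV1, an ETS factor induced by ERK signalling, had 6.10 and 5.66 CPM and then 23.3 and 21.1 CPM (1.92 ± 0.28, adjusted p = 0.00516).

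In 21 of the 42 gene lists no member was called, and these held 510 tested members with list medians from -0.39 to 0.87. With 1.39% of all genes called higher and 0.639% lower, lists of this size can hold no called member at the general share. The absence of calls therefore does not show that such genes were unaffected. None of 40 E2F and replication genes (median 0.07), 36 mitosis genes (0.17), 73 nuclear genes of oxidative phosphorylation (0.09), 29 cholesterol and fatty acid genes (-0.11), 20 integrins (-0.05), 22 Wnt targets (0.05) or 21 p53 targets (0.04) was called. The lowest of these medians was that of ATF4 and unfolded protein response genes (24 tested, -0.39), and it depended on the parental library, at 0.07 without parental replicate 1 and -0.71 without parental replicate 2. Of 24 Notch pathway genes, DLL1, a Notch ligand, was called lower, with 2.34 and 3.13 CPM in parental and 0.816 and 0.944 CPM in CD44s-OE cells (-1.64 ± 0.34, adjusted p = 0.0304), a call lost without parental replicate 2 or either CD44s-OE library. HES1, a Notch target, had 32.5 and 51.5 CPM and then 49.8 and 52.1 CPM (0.28 ± 0.21, adjusted p = 0.585), and NUMB, an inhibitor of Notch, 66.4 and 64.0 CPM and then 64.3 and 45.5 CPM (-0.25 ± 0.18, adjusted p = 0.58).

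The same genes were measured in CD44v6-OE cells. Across all genes, 73 (0.416%) were called between CD44v6-OE and parental cells, of which 71 were higher, and 179 (1.02%) between CD44s-OE and CD44v6-OE cells, of which 51 were higher in CD44s-OE cells. The first count was 14 with only the 4 libraries compared and 162 with DESeq2, and with 1 library left out the counts ranged from 13 (without CD44v6-OE replicate 1) to 344 (without parental replicate 1) and from 38 (without CD44s-OE replicate 2) to 321 (without parental replicate 1). These comparisons share libraries with that of CD44s-OE and parental cells, so the values are given side by side only. The 112 lower genes had a median log2 fold change of -0.16 for CD44v6-OE minus parental and the 244 higher genes one of 1.78. CLDN7 had 117 and 145 CPM in CD44v6-OE cells, EPCAM 255 and 203 CPM and CRB3 19.1 and 20.1 CPM. In direct comparison, the log2 fold change of CD44s-OE minus CD44v6-OE cells was -2.92 for CLDN7 (adjusted p = 0.000367), -1.71 for EPCAM (0.000565) and -2.52 for CRB3 (0.000367). They were higher by 2.33 for SLC9A3 (adjusted p = 0.000383), by 2.14 for EHF (0.00245), by 5.14 for ARNTL2-AS1 (0.000652), by 3.53 for LIX1 (0.00517) and by 1.54 for RASGRF1 (0.00204). ZEB1, at 7.95 and 7.27 CPM in CD44v6-OE cells, differed by 1.42 (adjusted p = 0.0286), under the fold threshold.

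The same contrast was measured in HCT116, whose libraries took no part in the SW480 calls. Between CD44s-OE and parental HCT116 cells, fitted over all 12 libraries, 1185 genes (6.06%) were higher and 812 (4.15%) lower at an adjusted p under 0.1. Of the 112 genes called lower in SW480, 24 (21.4%) were also lower in HCT116 and 6 (5.36%) higher. Of the 244 called higher, 36 (14.8%) were also higher and 2 (0.82%) lower. The medians in HCT116 were -0.33 for the lower and 0.42 for the higher genes. Those in SW480, -2.08 and 2.83, are larger by construction, since a call there required a change over 1.5. Among the lower genes, MAL2 changed by -1.60 in HCT116 (adjusted p = 0.0029), EPCAM by -1.14 (0.00306), CRB3 by -1.09 (0.00241) and CLDN7 by -0.84 (0.0402). LAMB3 (0.09, adjusted p = 0.888) and LAMA3 (0.07, adjusted p = 0.905) showed no change that passed there.

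The difference between the lines was tested as an interaction, and 768 of 19567 genes (3.92%) passed at an adjusted p under 0.1. SLC9A3, EHF, RASGRF1, SHH, FAM189A1, SHANK2 and KRT15 were among the called genes chosen for the smallest p-values of this test, so both lines took part in choosing them and their values are a description only. The log2 fold change in HCT116 was -1.09 for EHF (adjusted p = 0.0251) and -0.99 for RASGRF1 (0.0172). For SLC9A3 it was -0.70 and did not pass (0.202). The difference, SW480 minus HCT116, was 4.34 for SLC9A3, 4.31 for EHF and 2.87 for RASGRF1. On the lower side, the difference was -5.12 for SHH, -3.54 for FAM189A1, which stood at 1.96 in HCT116, -2.92 for SHANK2 and -2.15 for KRT15. The SW480 call of FAM189A1 was lost without CD44s-OE replicate 2. The differences for EPCAM (-0.64, adjusted p = 0.218) and MAB21L4 (-0.74, 0.907) did not pass. VIM rose by 3.16 in HCT116, and its line difference was -3.10 (adjusted p = 0.00703), while ZEB1 rose by 3.10 there, with a difference of -1.83 (0.0882).

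**Figure D5:**
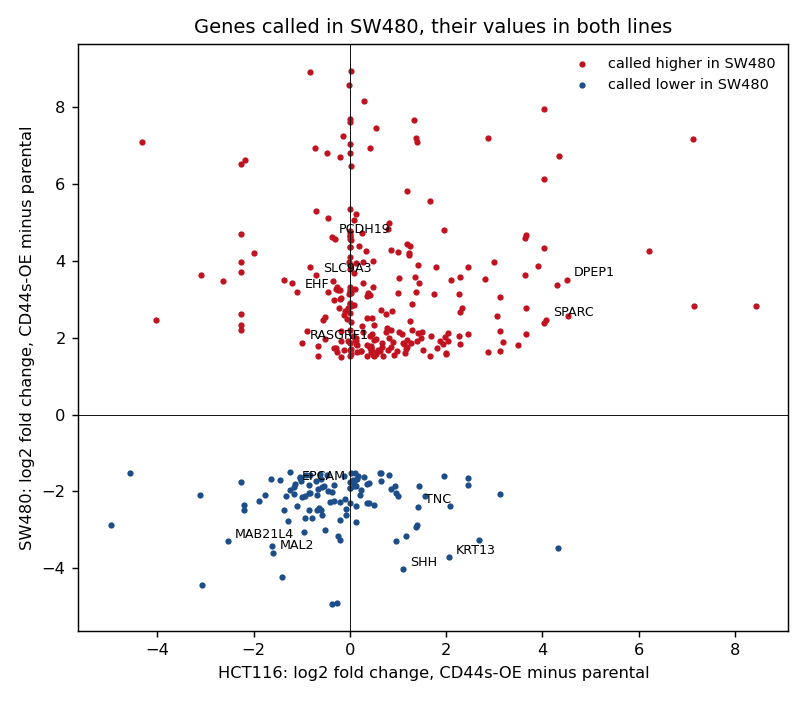
Log2 fold changes of CD44s-OE minus parental cells in SW480 (vertical) and HCT116 (horizontal) for the 356 genes called in SW480, 1 point per gene, higher genes in red and lower genes in blue. Of the 112 lower genes, 66 (58.9%) are also below 0 in HCT116, against 46.5% of all tested genes. MAL2, MAB21L4 and EPCAM are among them, although MAB21L4 did not reach an adjusted p under 0.1 there. SLC9A3, EHF and RASGRF1 are above 0 in SW480 and below 0 in HCT116, although SLC9A3 did not reach an adjusted p under 0.1 in HCT116.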

How the data were processed

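RNA was sequenced as read pairs in 12 libraries, of which the 4 of SW480 parental and CD44s-OE cells are the subject here. The authors aligned reads to hg19 with STAR 2.7.9a and deposited raw counts per gene, made with featureCounts of Subread 2.0.3 on GENCODE 35 (reverse strand, primary alignments, each read of a pair counted), per the file headers. Multimapping reads count once, so paralogs can share reads. The authors also deposited variance-stabilized values, on a log2 scale, made with DESeq2 1.30.1. Of 62426 genes, 40400 had counts, and all value columns were mapped to a sample. A length column was not used for comparisons.

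From the counts, edgeR 4.0.16 (R 4.3.3, limma 3.58.1) was run on the 6 SW480 libraries with filterByExpr, TMM factors and a robust quasi-likelihood fit, since the CD44v6-OE libraries share the estimate of spread. The test is 2-sided, and SE is the log2 fold change over the square root of F. CPM are scaled by TMM factors, except the marker sums, which are scaled by total counts. Line differences were fitted on all 12 libraries. DESeq2 1.42.0, RLE factors, other filters and thresholds, a replicate block and leaving out each library were alternatives. Totals were 43102156 to 51038512 counts in the 4 libraries, and 6 counts (3 read pairs) was taken as the floor, for counting error only.

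Named genes were the 15 largest changes in each direction among genes called in all 6 leave-one-out fits (average log2 CPM of at least 1, no overlap of groups), up to 4 called members of each list and direction, genes named by the study, the 5 largest differences between the parental libraries in each direction at a mean of at least 5 CPM, and the 5 smallest line difference p-values in each direction among called genes. Other list members are named as counts required, after their values were seen. The genes and lists were chosen with earlier results of these data known, and some lists and genes come from the study itself, so counts over them are not independent evidence. Some genes that met the rule are not reported here.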

Additional observations from a re-analysis of the deposited data

Results flagged for a closer look

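Of the 67 named genes called in SW480, 34 had a CD44s-OE effect that differed from that in HCT116 by the interaction test of edgeR (adjusted p under 0.1). Among all 19567 genes 3.92% passed, but the named genes were chosen in part for large changes in SW480. The values are log2 differences, the SW480 effect minus the HCT116 effect, and the genes were called in SW480 beforehand. PCDH19, SLC9A3, EHF, SHANK2, KRT15, RASGRF1, SHH and FAM189A1 were also chosen for the smallest p-values of this test, so that they passed it was fixed by that choice. The effect was more positive in SW480 for SH3BGRL (4.19), PCDH19 (5.02), BAIAP2L2 (3.16), COL4A1 (3.00), KLRC2 (3.53), SLC9A3 (4.34), EHF (4.31), GDA (2.79), DPP4 (2.53), GATA6 (2.36), AMOTL1 (4.03) and RASGRF1 (2.87). It was more negative in SW480 for MAL2 (-1.98), PRSS22 (-2.10), SHANK2 (-2.92), WNT10A (-2.51), CLDN7 (-1.63), CDH3 (-1.78), TNC (-3.81), CRB3 (-1.28), MISP (-1.84), CDS1 (-1.88), ILDR1 (-2.06), KDF1 (-1.14), LAMB3 (-1.93), LAMA3 (-1.76), OVOL2 (-1.75), KRT13 (-5.74), KRT81 (-2.66), KRT15 (-2.15), DLL1 (-1.92), TSPAN1 (-1.82), SHH (-5.12) and FAM189A1 (-3.54). Junction and polarity genes, LAMA3, LAMB3 and 3 keratins were in the latter set, and SLC9A3 and EHF in the former. The SW480 change that led to the call also enters the difference, so the sign of the difference was largely set by the direction of the call. The groups have 2 libraries each, so no sample could be tested as standing apart within its group.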

How the results depend on the processing

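The 356 calls between CD44s-OE and parental cells became 582 with no filter on low counts, 226 with a mean count of at least 50, 828 with no minimum fold change and 566 with a log2 fold change over 1, and ranged from 79 (without CD44s-OE replicate 2) to 809 (without parental replicate 2) when 1 library was left out. Under RLE factors, DESeq2, halved counts, the 4 libraries alone, the non-robust fit and an adjusted p under 0.05 the count stayed within 1.5 times the main one. Calls between CD44v6-OE and parental cells (73) became 289 with no filter, 40 with a mean count of at least 50, 162 with DESeq2, 14 with only 4 libraries and 43 at an adjusted p under 0.05, and ranged from 13 to 344 with 1 library left out. Calls between CD44s-OE and CD44v6-OE cells (179) became 293 with no filter, 327 with only 4 libraries, 371 with no minimum fold and 288 with a log2 fold change over 1, and ranged from 38 to 321. Line differences (768) became 1449 with no filter, 354 with only 8 libraries, 1620 with DESeq2 and 363 at an adjusted p under 0.05, and ranged from 239 to 1295. The 378 genes over 2-fold apart between parental libraries became 826 at a minimum of 1 CPM and 174 at 20 CPM. A fit with 1 library of a group assumes that it varies like the other groups.

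A replicate block gave 348 calls and changed no call of a named gene. The labels do not say that a replicate number marks a shared batch, and the deviations of same-numbered parental and CD44s-OE libraries from their group means correlated at -0.09 over 17539 genes. Among 96 named genes, 67 of them called, 86 of 1332 alternative values lost the call, 15 gained it and 1, of PDE2A, was called in the opposite direction, at 2.54 without parental replicate 1 against -1.40 without parental replicate 2. The calls lost without CD44s-OE replicate 2 numbered 30, and without CD44s-OE replicate 1, 20. Called members of the gene lists with 1 of the 4 libraries left out, with the number over all libraries in parentheses, were mesenchymal and matrix 1 to 7 (3), collagens and laminins 3 to 6 (7), mesenchymal transcription factors 0 to 1 (0), junction, polarity and sorting 6 to 12 (10), keratins 1 to 3 (3), cadherins 2 to 8 (7), RNA-binding and splicing 1 to 3 (2), hyaluronan and CD44 partners 0 to 5 (1), integrins 0 to 2 (0), interferon-stimulated 2 to 6 (4), NF-kB and TNF response 0 to 4 (3), immediate early and ERK 1 to 3 (2), Wnt targets 0 to 1 (0), Notch pathway 0 to 2 (1), BMP and TGF-beta 0 to 5 (0), enterocyte brush border 3 to 7 (5), intestinal lineage 1 to 6 (5), mucosal surface 0 to 7 (3), cell cycle brakes 0 to 1 (0), YAP and TAZ 0 to 4 (1), ATF4 and unfolded protein 0 to 3 (0), RGS 0 to 1 (0), ERBB ligands and receptors 0 to 2 (0), colon epithelium markers 1 to 2 (3), fibroblast markers 0 to 1 (1), leukocyte markers 0 to 2 (1), endothelial markers 0 to 1 (0). The Notch pathway list had 2 called members with RLE factors. The cause of these shifts was not tested.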

Other observations

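Genes of 2 chromosome regions were slightly lower together in CD44s-OE cells. Medians were taken over windows of 40 neighbouring genes with an average log2 CPM of at least 1, in steps of 10 genes, and the limit of -0.35 was chosen after the values were seen. Of 1152 windows, 31 had a median log2 fold change under that limit, 12 on chromosome 13 and 19 on chromosome 17, and none had a median over 0.35. The chromosome 13 windows spanned chr13:20207799-76180156 of hg19 with 150 genes, of which 89.3% were below 0, and had a median of -0.47. Relative to the parental mean, the library medians there were -0.33 and -0.58 in the CD44s-OE libraries, -0.32 and -0.13 in the CD44v6-OE libraries, and -0.07 and 0.07 in the parental ones. The 76 genes of the chromosome outside that span had a median of -0.12. The chromosome 17 windows spanned chr17:62180-26655711, the short arm and its neighbourhood, with 230 genes, of which 90.0% were below 0, and had a median of -0.43, with -0.35 and -0.44 in the CD44s-OE libraries and -0.19 and -0.08 in the CD44v6-OE libraries. The other 551 genes of chromosome 17 had a median of 0.07. In HCT116 the medians of both spans were 0.05 and -0.10. CLDN7, whose fall was far larger, lies in the span on chromosome 17. DNA copy number was not analysed here, and no explanation was tested.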
